A study of Mus musculus with 6 samples.

Results

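Mitochondrial hydratases, isomerases and thiolases are the enzymes that carry an activated fatty acid through beta-oxidation after its first dehydrogenation. The 8 genes described here are Hadha, Hadhb, Echs1, Hadh, Acaa2, Eci1, Eci2 and Decr1. Their probe sets were found by gene symbol in the platform annotation, which gave 15 probe sets for the 8 genes among 45037 probe sets in all. All 15 passed the filter for a test, which asked for a present call on at least 3 of 6 arrays, and 14 of the 15 were called present on all 6.

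RNA came from untreated male C57BL/6 mice of 10 to 12 weeks held at ambient temperature. The brown group was interscapular brown adipose tissue (3 arrays) and the white group was epididymal white adipose tissue (3 arrays), each on Affymetrix mouse 430_2 arrays. No group carried a transgene or a drug, and per the series' design text both tissues came from 3 mice. The labels do not say which arrays share a mouse, so p-values measure the spread between these samples. Type of fat and position in the body were confounded and cannot be told apart.

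In beta-oxidation an acyl-CoA dehydrogenase first makes an enoyl-CoA, and then water is added, the hydroxyl group is oxidised and the chain is cut by a thiolase. Long chains pass the last 3 reactions on the mitochondrial trifunctional protein, a membrane-bound complex of Hadha and Hadhb, while shorter chains are handled in the matrix by the separate enzymes Echs1, Hadh and Acaa2. Unsaturated fatty acids also need the isomerases Eci1 and Eci2, which move a double bond, and the dienoyl-CoA reductase Decr1, which removes one. Brown adipose tissue burns fatty acids by this route to produce heat, and white adipose tissue mainly stores them as triglyceride.

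Hadha and Hadhb are neighbours on mouse chromosome 5 and are transcribed away from each other. In RefSeq's annotation of GRCm38.p6, Hadha spans chr5:30119423-30154980 on the minus strand and Hadhb spans chr5:30155253-30184593 on the plus strand, which leaves 272 bases between the starts of the genes. That interval is printed because it lies upstream of both subunit genes of the trifunctional protein. It is chr5:30154981-30155252 on the plus strand, and capitals mark the motif GGGCGG, the core of an Sp1 box, or its reverse complement:

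Hadha-Hadhb interval: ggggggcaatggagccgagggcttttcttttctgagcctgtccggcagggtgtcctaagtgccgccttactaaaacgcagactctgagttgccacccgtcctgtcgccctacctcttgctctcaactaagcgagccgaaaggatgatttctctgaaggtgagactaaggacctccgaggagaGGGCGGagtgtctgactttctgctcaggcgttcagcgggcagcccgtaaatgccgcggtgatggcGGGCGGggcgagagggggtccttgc

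The 250 bases upstream of a matrix hydratase, a matrix dehydrogenase and an isomerase gene are printed beside it, from the same RefSeq table and each on the strand of its gene. Echs1 is chr7:140116422-140116671 (minus strand), Hadh is chr3:131272102-131272351 (minus strand) and Eci1 is chr17:24426433-24426682 (plus strand). Capitals mark the Sp1 core and, in Echs1, the nuclear receptor half-site AGGTCA:

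Echs1: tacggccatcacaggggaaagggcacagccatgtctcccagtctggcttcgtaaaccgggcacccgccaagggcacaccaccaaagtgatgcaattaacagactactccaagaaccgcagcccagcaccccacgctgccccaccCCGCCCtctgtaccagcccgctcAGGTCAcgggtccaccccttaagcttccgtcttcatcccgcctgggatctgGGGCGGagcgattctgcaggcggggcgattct

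Hadh: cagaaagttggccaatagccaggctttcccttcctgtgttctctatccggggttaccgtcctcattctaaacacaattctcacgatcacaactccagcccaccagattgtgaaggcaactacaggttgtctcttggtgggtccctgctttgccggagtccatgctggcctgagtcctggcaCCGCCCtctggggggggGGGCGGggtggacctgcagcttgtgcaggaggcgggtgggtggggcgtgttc

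Eci1: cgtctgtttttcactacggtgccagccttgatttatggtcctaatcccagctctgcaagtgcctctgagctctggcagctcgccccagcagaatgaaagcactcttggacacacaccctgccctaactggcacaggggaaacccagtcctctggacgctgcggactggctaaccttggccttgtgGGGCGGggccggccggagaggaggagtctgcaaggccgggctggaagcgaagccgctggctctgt

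Windows of 6 of the 8 genes were searched, all but those of Acaa2 and Decr1, on both strands. The Eci2 window (chr13:34994095-34994394, minus strand) lies inside the span annotated for that gene, chr13:34977748-35027115, and not before its outer end. The Sp1 core was found in 6 of 6, against 32.7% of 32841 windows of the same length. The windows of Hadha and Hadhb overlap, and the match upstream of Hadha is also among those upstream of Hadhb. The 6 windows are therefore not independent. The 6 windows were rich in G and C (58.8% to 62.8%, against a median of 52.4% over all windows), and among 3361 windows in that range 57.5% held the Sp1 core. The CCAAT box was found in the windows of Hadh and Eci2 (33.9% of all windows) and the half-site AGGTCA in that of Echs1 alone (14% of all windows). A longer element bound by estrogen-related receptors, TNA directly before AGGTCA, so that it contains the half-site, occurred in 0 of the 6 windows and in 1.14% of all windows. The DR1 element, a pair of AGGTCA half-sites in the same direction with a single base between them, occurred in 0 of the 6 and in 0.0335% of all windows. TATAAA (12.4%) and the NRF1 site, GCGCA directly followed by TGCGC (0.783%), also occurred in 0 of the 6. These matches describe letters in these windows and not binding.

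All 15 probe sets of the 8 genes were higher in brown adipose tissue, and on none of the 15 did a brown array overlap a white array. Among all genes tested, 31.3% had every brown array above every white array. Over all 19819 probe sets tested, 24.6% were higher in brown and 29.9% higher in white at the same threshold (limma, Benjamini-Hochberg adjusted p below 0.05). With 1 probe set per gene, that with the greatest mean of log2 signals, 8 of 8 genes were higher in brown, where 28.2% of 10264 genes were higher in brown (2895) and 32.7% higher in white (3361). With the deposited scaling that split was 1535 and 5758, and with spike-in scaling 1380 and 5226, and the 8 genes kept their calls. The median log2 difference (brown minus white) of the 8 genes was 1.97, a ratio of 3.92-fold, and that of all genes tested was -0.04. The genes ranged from 0.45 for Hadh to 3.42 for Acaa2. In these bulk samples, fewer cells of a type and less RNA per cell cannot be told apart.

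**Figure D1:**
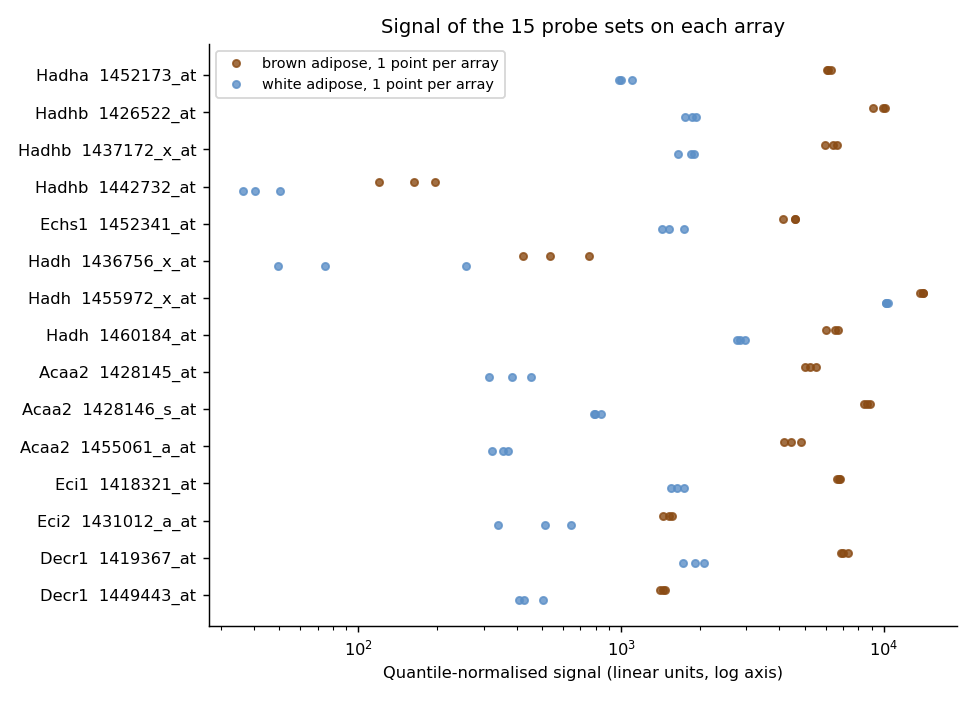
Quantile-normalised signal (horizontal log axis, linear signal units) of each of the 15 probe sets on the 3 brown and 3 white arrays, 1 point per array. Every brown point lies to the right of the white points of its row, and the Hadh probe set 1455972_x_at reaches 14151 in brown and at least 10206 in white.

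Signals below are quantile-normalised linear values, and tissue values are mean ± SD with n = 3 arrays. A ratio is the ratio of geometric means, and adjusted p-values are from limma over all genes tested unless probe sets are named.

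The trifunctional protein was read by 1 probe set for its alpha subunit and 3 for its beta subunit. Hadha, which carries the hydratase and dehydrogenase activities for long chains, had signals of 6084, 6112 and 6315 on the brown arrays and 995, 1103 and 985 on the white arrays. The brown arrays lay within a narrow range and far above the white ones. The ratio was 6.01-fold, a log2 difference of 2.59 ± 0.06 (SE; adjusted p = 7.05e-10), and 1.15% of all genes tested had a larger difference. Hadhb, the thiolase subunit, had 9924, 9063 and 10121 in brown and 1860, 1748 and 1933 in white on its brightest probe set, 1426522_at. Brown replicate 2 was the lowest brown array and still stood at several times the highest white array. Its log2 difference was 2.39 ± 0.06 (adjusted p = 1.05e-09).

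The other Hadhb probe sets gave smaller differences in the same direction. On 1437172_x_at, of a type whose probes can cross-hybridise, Hadhb stood at 6330 ± 328 in brown and at 1798 ± 129 in white. The log2 difference there was 1.82 ± 0.07. The dim probe set 1442732_at gave 196, 120 and 163 in brown and 40.3, 36.3 and 50.5 in white, where it was called absent on 2 of the 3 arrays. Its difference of 1.90 ± 0.23 (adjusted p = 5.96e-05 over probe sets) had the widest error of the 3 Hadhb probe sets.

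The within-array log2 difference between Hadha and Hadhb, which does not depend on a scale factor of the array, was 0.20 ± 0.102 (SE) higher in brown, and the tissues overlapped (exact permutation p = 0.3, two-sided, adjusted p = 0.4 over 6 pairs), which does not show that the subunits changed alike. These signals were quantile-normalised, which is more than a scale factor, and with the deposited scaling the same quantity was 0.14. With the mean over all Hadhb probe sets it was 0.55.

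Among the matrix enzymes for shorter chains the differences were unequal. Echs1, the short-chain enoyl-CoA hydratase, which also serves valine breakdown, had 4591, 4119 and 4577 in brown and 1527, 1729 and 1430 in white. The arrays of each tissue agreed closely and did not overlap. The ratio was 2.84-fold (log2 difference 1.51 ± 0.08, adjusted p = 1.14e-07). Acaa2, the ketoacyl-CoA thiolase of medium chains, had 8828, 8421 and 8627 in brown and 798, 791 and 837 in white on probe set 1428146_s_at. It had the highest ratio of the 8 genes, 10.7-fold (log2 difference 3.42 ± 0.05, adjusted p = 1.58e-10), and 0.507% of all genes tested had a larger difference. The suffix of that probe set marks probes that can be shared between transcripts of several genes. The other Acaa2 probe sets gave 3.79 ± 0.12 on 1428145_at and 3.67 ± 0.08 on 1455061_a_at.

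Hadh, the hydroxyacyl-CoA dehydrogenase of medium and short chains, depended on the probe set. On 1455972_x_at, the brightest, it had 13775, 14151 and 14151 in brown and 10417, 10206 and 10206 in white. This probe set was the brightest or next to brightest of all 45037 on every brown array and ranked between 27 and 29 on the white arrays. Quantile normalisation gives equal ranks equal values, so the repeated values do not show that the arrays agreed. The deposited signals of this probe set were 12903.1, 14085.6 and 14609.5 in brown and 9744.3, 10097.1 and 10110.5 in white. After normalisation its log2 difference was 0.45 ± 0.03 (adjusted p = 1.79e-06), the smallest of the 15. With the deposited scaling it was 0.47 (adjusted p = 2.67e-05). On 1460184_at Hadh had 6678, 6025 and 6498 in brown and 2972, 2772 and 2825 in white. That probe set, whose suffix does not mark cross-hybridising probes, gave a log2 difference of 1.16 ± 0.05 (adjusted p = 6.83e-08 over probe sets). The third, 1436756_x_at, was much dimmer, with 535, 422 and 755 in brown and 74.4, 49.3 and 257 in white. White replicate 3 stood well above the other white arrays there, and the difference of 2.50 ± 0.50 had the widest error of the 15 (adjusted p = 0.00194 over probe sets). Hadh was thus higher in brown on each probe set, by 1.36-fold to 5.65-fold, and its size is uncertain. The brightest probe set gave 0.92 with median centring in place of quantile normalisation, and the mean over the Hadh probe sets gave 1.37. Whether the brightest probe set was limited by the upper end of the scanner's range was not tested.

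**Figure D2:**
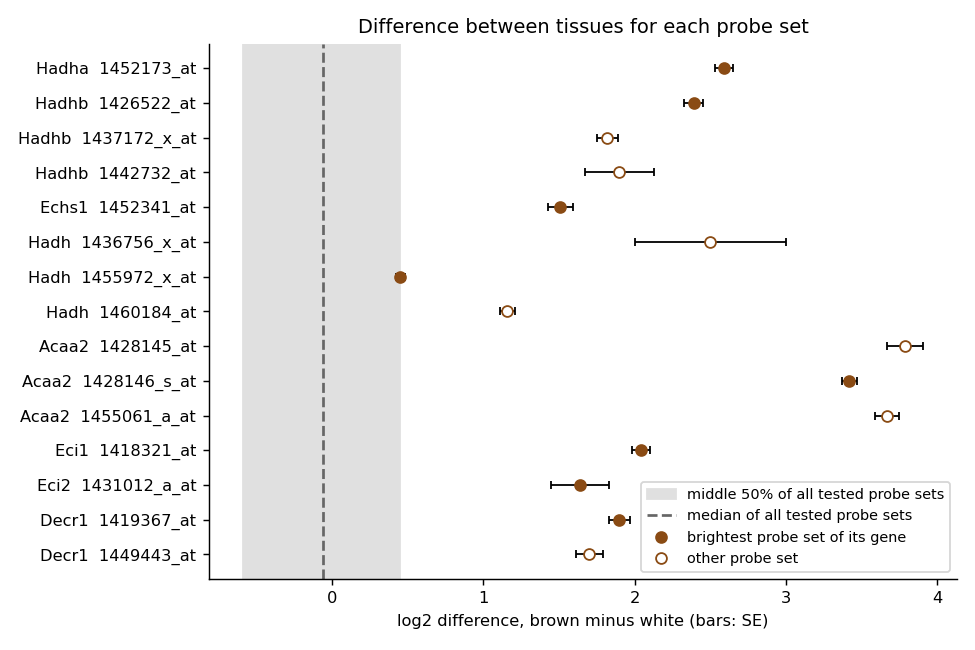
Log2 difference, brown minus white, of each probe set, with bars for the SE of the limma fit. Filled points are the brightest probe set of a gene and open points the others, the dashed line is the median of all tested probe sets (-0.06) and the grey band runs between their quartiles. Acaa2 lies farthest to the right at 3.42 to 3.79, and the Hadh probe sets spread from 0.45 to 2.50.

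The auxiliary enzymes for unsaturated fatty acids were also higher in brown. Eci1, the main mitochondrial enoyl-CoA isomerase, had 6609, 6738 and 6789 in brown and 1544, 1625 and 1738 in white, with narrow ranges in both tissues. The ratio was 4.11-fold (log2 difference 2.04 ± 0.06, adjusted p = 1.79e-09). Eci2, an isomerase found in mitochondria and peroxisomes, had 1519, 1447 and 1565 in brown and 515, 647 and 341 in white. The white arrays spread far more than the brown ones, with an SD of log2 signal of 0.469 against 0.0571. Its log2 difference was 1.64 ± 0.19 (adjusted p = 3.76e-05), the largest adjusted p of the 8 genes. Decr1, the dienoyl-CoA reductase, had 7315, 6901 and 6991 in brown and 2067, 1915 and 1716 in white on 1419367_at. The ratio was 3.73-fold (log2 difference 1.90 ± 0.07, adjusted p = 9.82e-09), and its other probe set, 1449443_at, gave 1.70 ± 0.09 at lower signals (1440 ± 32.8 against 446 ± 51.7).

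Pairs of enzymes with related tasks were compared by the change of their within-array log2 difference from white to brown. With 3 arrays against 3 the exact permutation test cannot go below p = 0.1, so none of the 6 pairs could pass a threshold of 0.05. Acaa2 changed more than the trifunctional thiolase subunit Hadhb by 1.02 ± 0.043 on the log2 scale, Echs1 changed less than the trifunctional subunit Hadha by -1.08 ± 0.0582, and Hadh less than Hadha by -2.14 ± 0.0586. In these 3 pairs the tissues did not overlap (exact permutation p = 0.1, adjusted p = 0.2). With Hadh read by 1460184_at its value against Hadha was -1.42, and with Acaa2 read by 1428145_at its value against Hadhb was 1.40. With the mean over all probe sets of a gene these values were -1.22 and 1.59. The dim Hadh probe set 1436756_x_at had a log2 difference of 2.50 ± 0.50, close to the 2.59 of Hadha. The smaller change of Hadh was thus not seen on each of its probe sets. Eci1 against Eci2 (0.40 ± 0.309) and Decr1 against Eci1 (-0.14 ± 0.133) overlapped between tissues (exact permutation p = 0.4, adjusted p = 0.4 for both). The first was 0.66 on the deposited scale, 0.20 without white replicate 2 and 0.71 without white replicate 3. The second was -0.04 without white replicate 1, -0.26 without white replicate 3 and -0.24 with the mean over probe sets.

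**Figure D3:**
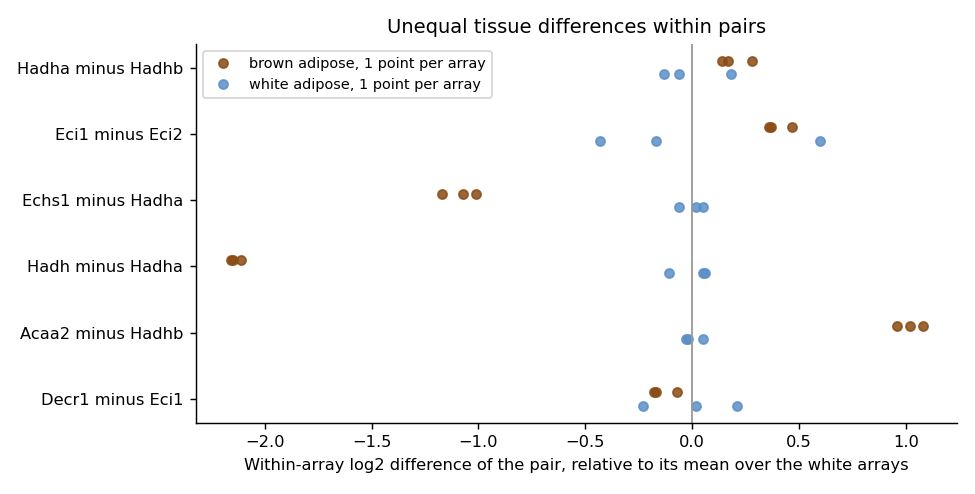
Within-array log2 difference of 6 pairs of genes, 1 point per array, set so that the mean of the white arrays is 0. Brown and white points are apart for Echs1 minus Hadha, Hadh minus Hadha and Acaa2 minus Hadhb, and overlap for the other pairs.

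The steps before these enzymes differed between the tissues in the same direction. All 10 genes for the first dehydrogenation and its electron transfer were higher in brown, with a median log2 difference of 1.51. The largest were Acadvl (3.16 ± 0.06) and Acadl (2.69 ± 0.08), which act on very long and long chains, and Etfdh (2.84 ± 0.07), which passes the electrons to coenzyme Q. Of 5 measured genes of the carnitine shuttle, which brings fatty acids into mitochondria, 4 were higher in brown, with Cpt1a as the exception (median 1.70). The carrier Slc25a20 had 6189 ± 278 in brown against 1082 ± 40.8 in white (2.52 ± 0.06) and Cpt2 a log2 difference of 1.85 ± 0.05. Cpt1a, the liver form of the outer-membrane acyltransferase, was higher in white (-2.12 ± 0.14). Acsl1 and Cpt1b of that list were not analysed here.

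Other mitochondrial enzymes of related kinds were read from a list of 9. Of these 9 genes, 8 were higher in brown and 1 was not called, with a median of 1.07. Acsf3 (2.59 ± 0.16), an acyl-CoA synthetase and so not of these enzyme types, and Acat1 (1.77 ± 0.06), the acetoacetyl-CoA thiolase, and Ech1 (1.21 ± 0.06), an isomerase of dienoyl-CoA, differed most. Echdc2 was not called at -0.27 ± 0.17 (adjusted p = 0.21), and was called higher in white with the deposited scaling (-0.82, adjusted p = 0.00209).

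Peroxisomes hold their own enzymes for the same chemistry. Of 12 tested genes of that list 10 were higher in brown, 1 was higher in white and 1 was not called, with a median log2 difference of 0.72. With the deposited scaling 6 were higher in brown and with spike-in scaling 5. Amacr, a racemase for branched chains, had the largest difference (1.98 ± 0.11), followed by the dienoyl-CoA reductase Decr2 (1.68 ± 0.15) and the bifunctional hydratase and dehydrogenase Ehhadh (1.59 ± 0.11). Scp2, a thiolase and sterol carrier, was higher in white (-0.45 ± 0.04), a call that was lost with median centring (0.10, adjusted p = 0.073). Acox3, an acyl-CoA oxidase, was not called at 0.50 ± 0.26 (adjusted p = 0.129), and Acox2 was not called present on any array.

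Set beside a peroxisomal counterpart, Decr1 had a log2 difference of 1.90 and Decr2 of 1.68. Ehhadh (1.59 ± 0.11) stood below Hadha (2.59), near Echs1 (1.51) and above Hadh on its brightest probe set (0.45). With the deposited scaling Ehhadh gave 1.23 and Echs1 1.43. The thiolases Acaa1a (0.72 ± 0.09) and Acaa1b (0.70 ± 0.15) stood below Acaa2 (3.42) and Hadhb (2.39), and the isomerase Eci3 (0.38 ± 0.10) below Eci1 (2.04) and Eci2 (1.64). The differences between these values were not tested. Acaa1a and Acaa1b are near-identical genes, and Acaa1a was read by a probe set of a type that can cross-hybridise, so their separation is uncertain. With the deposited scaling Acaa1b (0.26, adjusted p = 0.134) and Eci3 (-0.13, adjusted p = 0.308) were not called, and Acaa1a fell to 0.26 (adjusted p = 0.0251). With spike-in scaling none of these 3 was called (0.27 and adjusted p = 0.124 for Acaa1a).

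A list of 14 general mitochondrial genes, from citrate synthase to subunits of the respiratory chain, served as a yardstick. All 14 were higher in brown, with a median of 1.09 and a range from 0.24 to 2.60. The lowest, the import receptor Tomm20, lost its call with the deposited scaling (0.10, adjusted p = 0.201) and with spike-in scaling (0.11, adjusted p = 0.451), which left 13. Ndufs1 (2.60 ± 0.07), Ndufv1 (2.38 ± 0.05) and Uqcrc2 (1.95 ± 0.08) had the largest differences. Among the 8 genes described here 6 lay between 1.64 and 3.42, and Echs1 (1.51) and Hadh (0.45) were lower. These are counts and medians, and no test of one list against another was made.

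**Figure D4:**
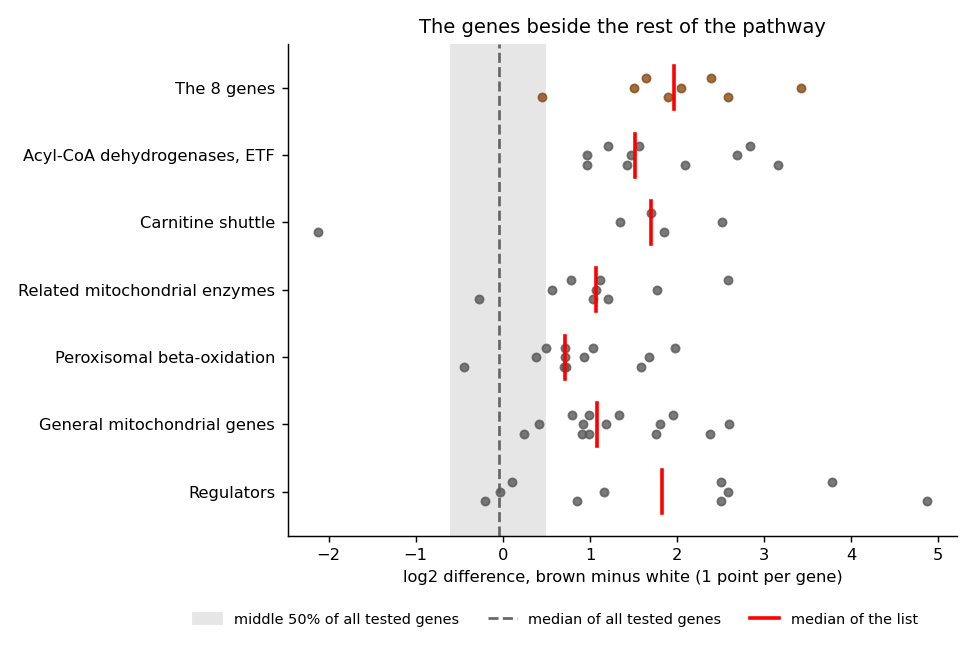
Log2 difference, brown minus white, of every tested gene of each list, 1 point per gene, with a red bar at the list's median, a dashed line at the median of all genes tested (-0.04) and a grey band between their quartiles. Medians are 1.97 for the 8 genes, 1.51 for acyl-CoA dehydrogenases and electron transfer (ETF), 1.70 for the carnitine shuttle, 1.07 for related mitochondrial enzymes, 0.72 for peroxisomal enzymes, 1.09 for general mitochondrial genes and 1.83 for regulators.

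Regulators linked to genes of fatty acid oxidation or of mitochondria in general were measured on the same arrays. Of 10 tested, 7 were higher in brown and 3 were not called (median 1.83). The fatty acid receptor Ppara averaged 2056 ± 125 in brown. On the white arrays it averaged 72.6 ± 25.1, with a present call on 0 of 3, so that its brown level was at least 29.3-fold higher (adjusted p = 2.01e-08). Esrrg, an estrogen-related receptor, was absent on all white arrays, and its brown level was at least 13.7-fold higher. The coactivator Ppargc1b had a difference of 2.59 ± 0.06. Pparg (0.11 ± 0.08, adjusted p = 0.236), Ppard (-0.21 ± 0.20, adjusted p = 0.373) and Nrf1 (-0.03 ± 0.16, adjusted p = 0.88) were not called. With median centring Pparg was called higher in brown (0.32), and with the deposited scaling Ppard (-0.75) and Nrf1 (-0.58) were called higher in white.

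The genes with a pattern most like the mean of the 8 were sought over the 6 arrays. Each gene's log2 signals were centred on their own mean, and likeness was the root mean square distance to the mean centred profile of the 8. Mcee, an epimerase of propionate breakdown, was nearest (distance 0.0396), followed by the complex I subunit Ndufa9 (0.0419), the amino acid transporter Slc36a2 (0.0491), Idh3a of the tricarboxylic acid cycle (0.051), the complex I subunit Ndufb5 (0.0589) and the mitochondrial ribosomal protein Mrpl18 (0.0592). The median distance of all genes tested was 1.04. Among the 8 themselves, Decr1 (0.0777) and Eci1 (0.0911) lay nearest to their mean and Hadh (0.773) and Acaa2 (0.715) farthest. The distances rest almost wholly on the step between the tissues.

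The tissues matched their labels by marker genes and also differed in other cell types. All 6 brown adipocyte markers were higher in brown, with summed signals of 35530 to 36939 against 268 to 441 in white, and Ucp1 was called absent on all white arrays. All 5 white adipocyte markers were higher in white. Markers shared by fat cells had 3 of 5 higher in white and 2 not called, with sums of 30858 to 31555 in brown and 40387 to 41588 in white. All 7 macrophage markers (2381 to 2891 in brown, 16629 to 17447 in white), all 6 mesothelial markers (215 to 282 against 2105 to 2349) and all 5 fibroblast markers (8460 to 9259 against 29500 to 29966) were higher in white, as were 4 of 6 endothelial markers (1868 to 2084 against 2877 to 2931). The part of these cells in the differences of the 8 genes was not tested.

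Skeletal muscle, another tissue rich in these enzymes, lies next to interscapular fat. Of its 9 markers, 6 were called absent on all brown arrays and 8 on all white arrays. Their summed signal was 439, 575 and 166 on the brown arrays and 316, 329 and 308 on the white arrays. Of these sums, Acta1 gave 97.7, 145 and 2.16 on the brown arrays and 153, 224 and 164 on the white arrays. It was called present on all white arrays and on brown replicate 2. Each of the other markers had a higher mean log2 signal in brown, by 0.31 for Myh1 up to 3.84 for Mylpf. These other markers did not pass the filter for a test, and Mylpf was called absent on every array. Myh1 and Myh4 were called present on brown replicates 1 and 2 and on no white array. The part of muscle RNA in the differences of the 8 genes was not tested. Of the 3 measured epididymis markers 2 were absent on every array. The other, Rnase10, was called present on all white arrays and on brown replicates 1 and 2, at low signals. It averaged 46.5 ± 14.2 in brown and 53.6 ± 3.28 in white and was not called (-0.25 ± 0.28, adjusted p = 0.456). The lymphocyte markers Cd3e, Cd3g and Cd79b were called present on no array. Cd79a was called present on white replicate 3 alone, and the white level of Ighm was at least 42.0-fold higher. The Schwann cell marker S100b was higher in brown (4.71 ± 0.22) and Sox10 was not called (0.39 ± 0.20, adjusted p = 0.11).

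Brown arrays had fewer probe sets called present (35.6% to 37.5%) than white arrays (45.2% to 45.8%), and their deposited median signals were lower (37.6 to 39.4 against 52.1 to 52.5). The actin 3'/5' signal ratio was 1.36 to 2.24 in brown and 1.19 to 1.73 in white, highest on brown replicate 2. The median difference of the 8 genes was 1.90 with the deposited scaling, where the median of all genes was -0.50.

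**Figure D5:**
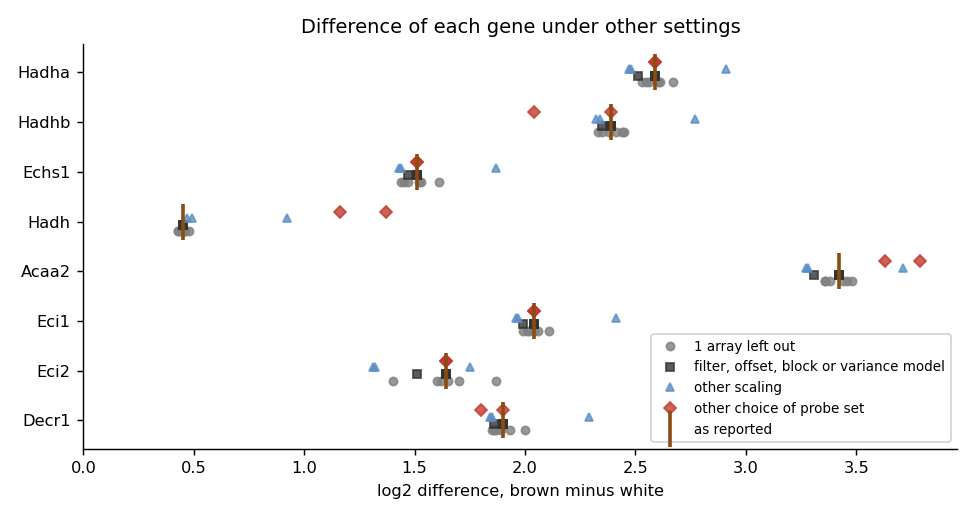
Log2 difference, brown minus white, of each of the 8 genes as reported (vertical bar) and under other settings, 1 point per setting: arrays left out, other filters or models, other scaling of the arrays and other choices of probe set. All values lie above 0, and Hadh, from 0.43 to 1.37, moves most in proportion to its size.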

How the data were processed

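Per the file headers, the authors deposited for each probe set and array a linear signal intensity with its detection call and detection p-value. The sources used here do not name the software or the scaling. A deposited intensity table of the whole series has columns that run opposite in tissue: each column named for brown was most like a white array (r of log2 signals 0.870 to 0.874) and the reverse (0.840 to 0.848). Its column medians were 64.3, 62.8 and 63.8 (named brown) and 56.7, 56.8 and 55.9 (named white). Its scale is linear, whether it is centred is not settled, and it served only as an alternative.

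Trimmed means (2%) of the arrays differed by 37.2%, above the limit of 10% set for keeping the deposited scaling, so log2 signals were quantile-normalised. The 1 signal of 0 was set to 0.1. Control probe sets (64) were left out. Of the rest, 34945 had 1 gene symbol, 932 several and 9160 none. Tests used limma 3.58.1 in R 4.3.3 (lmFit, eBayes with a trend), two-sided, with Benjamini-Hochberg adjustment over 19819 probe sets or 10264 genes. Each gene was represented by the probe set with the highest mean log2 signal. "At least" folds take, on each array of the dim tissue, the probe set's own signal or the lowest signal with a present call, whichever is higher. For Ppara, Esrrg and Ighm the result equalled the plain ratio of geometric means. These folds are therefore not lower confidence limits.

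On simulated data with 19819 probe sets and 3 arrays each, 50 changes of each size were recovered at 22% (log2 change 0.5), 60% (1), 88% (2) and 98% (3), with 7 false calls. The changed probe sets were drawn at random over all tested and were far fewer than those called in the data. These rates therefore do not give the sensitivity for the genes described here. Pairs of genes were compared with an exact two-sided permutation test over arrays.

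The 8 genes and all lists were chosen with earlier results of these data known. Named are the 8 genes, and of each list the 3 largest called differences, calls against the list's direction and genes not called. The 6 nearest genes follow the distance rule in the text. Marker genes are named where they define a tissue, are at background or decide a list, the last chosen after seeing the values. Promoter sequences are RefSeq's (GRCm38.p6). The number of arrays limits the precision.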

Additional observations from a re-analysis of the deposited data

How the results depend on the processing

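The 8 genes stayed higher in brown, past the threshold, under all 16 settings run on the array files, with differences of 2.47 to 2.91 for Hadha, 2.04 to 2.77 for Hadhb, 1.43 to 1.87 for Echs1, 0.43 to 1.37 for Hadh, 3.27 to 3.79 for Acaa2, 1.96 to 2.41 for Eci1, 1.31 to 1.87 for Eci2 and 1.80 to 2.29 for Decr1. The limma adjusted p-values depended on the variance model. Without the trend in eBayes they were far larger, from 6.04e-06 for Acaa2 and 1.03e-05 for Hadha to 0.00144 for Eci2 and 0.00386 for Hadh. Probe sets of these genes higher in brown numbered 15 with the replicate number as a block, and no call of the 8 genes changed there. All genes higher in brown and in white numbered 2792 and 3264 with the block, against 2895 and 3361. Deviations of same-numbered arrays correlated at 0.02, -0.01 and -0.05, so the numbers were not taken to pair the samples. In the series table, taken as its columns are named, the direction turned: -2.49 for Hadha, -2.20 for Hadhb, -1.48 for Echs1, -0.28 for Hadh, -3.45 for Acaa2, -1.49 for Eci1, -0.72 for Eci2 and -1.92 for Decr1. Those columns are most like arrays of the other tissue.

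The pair of Hadh and Hadha moved to -1.99 with the deposited scaling, -2.06 with 64 signal units added, -1.22 with the mean over probe sets and -1.42 without probe sets prone to cross-hybridisation, an alternative chosen after seeing the data. It was -2.24 to -2.07 with single arrays left out. Acaa2 and Hadhb gave 0.95, 0.96, 1.59 and 1.40 in the same order, and Hadha and Hadhb 0.55 with the mean over probe sets. With the deposited scaling 6 peroxisomal genes were higher in brown, 1 related mitochondrial gene and 2 regulators were higher in white. With spike-in scaling these were 5, 1 and 2. With median centring and with the mean over probe sets 0 peroxisomal genes were higher in white. The median difference of all genes was -0.04, and -0.50, -0.48 and -0.05 with deposited, spike-in and median scaling. Over all genes the deposited scaling called 1535 for brown and 5758 for white, and spike-in scaling 1380 and 5226. The cause of these changes was not tested.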
